A study of Mus musculus with 4 samples.

Results

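Plasmacytoid dendritic cells (pDC) were studied in mammary tumours grown in mice with and without interleukin 1α in the host. The members were 461 barcodes of 14555 kept barcodes. They were chosen by their own transcripts: a member had at least 4 UMIs (molecular tags that count captured transcripts) summed over Siglech, Ccr9, Klk1 and Cox6a2, with at least 1 of Siglech. It also had at most 1 UMI over Cd3d, Cd3e and Cd3g and under 3 over C1qa, C1qb and C1qc, which keeps out T cells and macrophages. Barcodes were kept from 500 UMIs and 250 detected genes upwards if mitochondrial genes gave no more than 20% of their UMIs.

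HER2+ H605 mouse mammary tumour cells had been transplanted into the mammary pad of WT or IL1α-/- hosts of the FVB/NJ strain. The labels give an age of 6 to 8 weeks, in the field for the cell type. Both groups received the same tumour cells, so the deletion lies in the host and the tumour cells themselves were not deleted for Il1a. Tumours were taken on day 14, digested, enriched for live cells and run on droplet single-cell RNA sequencing, with 2 tumours a group. The labels say that tumour pairs were collected on separate days but do not tie a sample to a day, so no value within a day could be given.

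Plasmacytoid dendritic cells are rare cells of the dendritic lineage that circulate and enter inflamed tissue and tumours. They sense nucleic acids in endosomes through Tlr7 and Tlr9, and with Irf7 they can make very large amounts of type I interferon. Their identity depends on the transcription factors Tcf4, Irf8, Spib, Runx2 and Bcl11a. In tumours they are often described as poor interferon producers. Interleukin 1α is an alarm cytokine that acts through Il1r1 and the adaptor Myd88 on NF-kB.

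The libraries held between 6705368 and 29001333 UMIs, with IL1α-/- replicate 1 the shallowest. Il1a itself gave 67 and 112 UMIs over all kept barcodes of WT replicates 1 and 2, against 1 and 0 in IL1α-/- replicates 1 and 2. The members held 0 Il1a UMIs in every library, so the gene that separates the hosts was not detected in these cells. No member barcode was shared between libraries, and pairs of libraries shared between 0 and 6 kept barcodes. The median member held 5764 and 7121 UMIs in the WT tumours and 2577 and 5357 in the IL1α-/- tumours (replicates 1 and 2 in each, the order used throughout). All p-values measure the spread between these 4 samples.

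Few barcodes that met the Siglech, Cd3 and C1q limits lay near the threshold of the gate. Between 0 and 4 of these in a library had any single gate total from 1 to 7 UMIs. The median member had 36 and 44 gate UMIs in the WT tumours and 19 and 31 in the IL1α-/- tumours. Just outside it, 2, 0, 3 and 2 barcodes stood at 3 gate UMIs, and just inside, 3, 1, 1 and 1 stood at 4 (WT 1, WT 2, IL1α-/- 1, IL1α-/- 2). A further 21, 12, 10 and 11 barcodes reached 4 gate UMIs but were left out for more than 1 Cd3 UMI. Of the barcodes at 4 or more gate UMIs, 1, 5, 1 and 3 had no Siglech UMI. In the same order, 3, 3, 1 and 0 had 3 or more C1q UMIs.

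The other genes that stood highest in the members against the remaining barcodes were those of plasmacytoid dendritic cells. They are given as a description, since the members were chosen on the same transcripts. Levels are in CPM, a gene's UMIs scaled to a common total per library. Ly6d stood at 2348, 3271, 2073 and 1598 CPM in the members and at 10.6 to 27.4 CPM in the remaining barcodes (WT 1, WT 2, IL1α-/- 1, IL1α-/- 2). Bst2, the surface antigen PDCA-1, stood at 2305, 2611, 2506 and 3003 CPM against 90.5 to 165. Spib stood at 311, 285, 267 and 372 CPM against 1.43 to 4.98, and Bcl11a at 761, 721, 522 and 551 CPM against 4.52 to 15.6. Iglc3, Rnase6, Fcrla, Slpi, Kmo, Dntt and Lair1 were likewise among the 24 leading genes. Immunoglobulin light chain and Dntt transcripts are lymphoid features that plasmacytoid dendritic cells are known to carry.

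**Figure D1:**
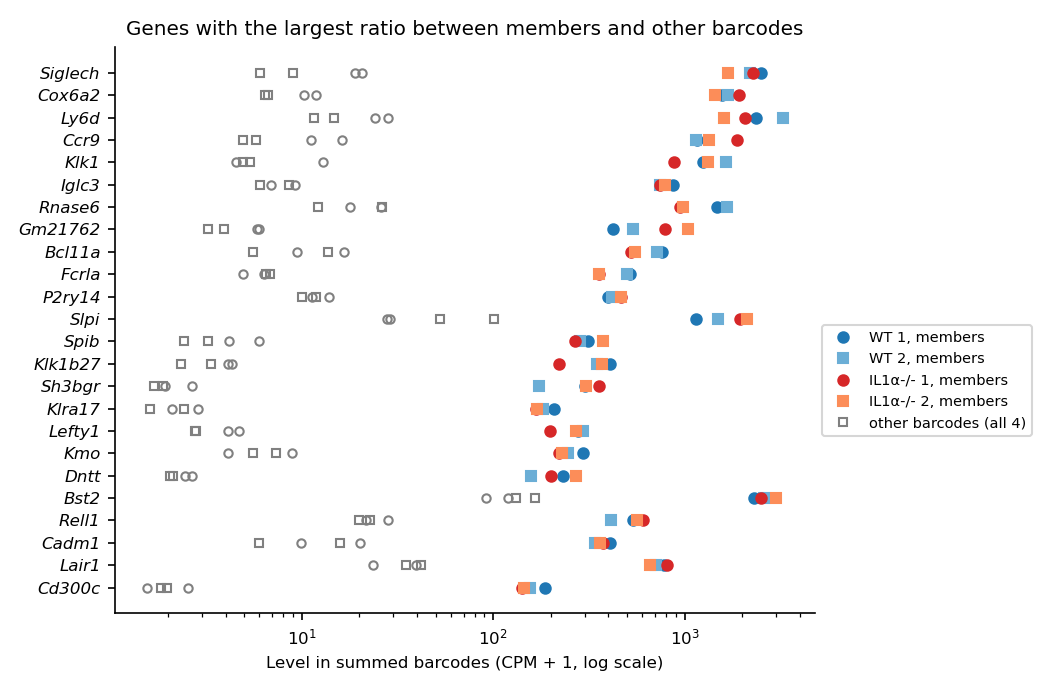
Levels of the 24 genes with the largest ratio between members and other kept barcodes, in CPM plus 1 on a log axis, with coloured points for the members of each of the 4 libraries and open grey points for the other barcodes. The members of all 4 libraries lie to the right of the other barcodes for every gene shown.

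Markers of other cell types were low but not absent. The gate itself held down Cd3d, Cd3e and Cd3g among the T and NK markers. It did the same for C1qa, C1qb and C1qc among the phagocyte markers. Summed over 4 neutrophil markers the members held 57.2, 5.93, 0 and 2.19 CPM (WT 1, WT 2, IL1α-/- 1, IL1α-/- 2), and 3 of the 4 were at 0 in every library. Fibroblast markers, of which none of 4 was at 0 throughout, summed to 210, 31.1, 259 and 483 CPM. Phagocyte markers, with 1 of 8 at 0, summed to 57.2, 63.8, 433 and 52.5 CPM, and tumour epithelial markers, with 1 of 6 at 0, to 33.5, 32.6, 267 and 17.5 CPM. T and NK markers summed to 447, 393, 411 and 306 CPM with none of 8 at 0. B cell and plasma cell markers reached 389, 479, 544 and 535 CPM, with 3 of 6 at 0 in every library. Conventional dendritic markers summed to 447, 381, 366 and 326 CPM with none of 6 at 0, and endothelial markers to 284, 231, 222 and 192 CPM with neither of 2 at 0. IL1α-/- replicate 1 was thus the highest in phagocyte and epithelial transcripts, and IL1α-/- replicate 2 in fibroblast transcripts. Single members held much of these. In IL1α-/- replicate 1, 1 member held 65 of 69 Lyz2 UMIs and 1 held all 46 Csn3 UMIs. In IL1α-/- replicate 2, 1 member held 80 of 82 Col1a1 UMIs. Of the T and NK sum Cd8a gave 340, 289, 296 and 144 CPM, with no more than 15 UMIs in 1 member.

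The share of plasmacytoid dendritic cells did not separate the hosts. In WT replicate 1 the members were 182 of 4001 kept barcodes, 4.55% (95% exact Clopper-Pearson interval 3.92 to 5.24%), and in WT replicate 2 they were 99 of 4006, 2.47% (2.01 to 3.001%). In IL1α-/- replicate 1 they were 95 of 3213, 2.96% (2.40 to 3.603%), and in IL1α-/- replicate 2 they were 85 of 3335, 2.55% (2.04 to 3.14%). The 2 WT tumours differed from each other by more than either differed from the IL1α-/- mean, and the groups overlapped. The means were 3.51% ± 1.47 (SD, n = 2) and 2.75% ± 0.289 (SD, n = 2). An exact two-sided permutation test gave p = 1.0, where the smallest p that 2 against 2 allows is 0.333. Intervals cover counting error only.

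The share depended on the denominator. As a percent of barcodes without a Cd3 UMI the members were 7.36% and 4.14% in the WT tumours and 6.31% and 6.35% in the IL1α-/- tumours, so that the difference of means changed from -0.757 to 0.584 percentage points. A gate on at least 2 Cd3 UMIs, which collects T cells, held 1289 and 1303 barcodes in the WT tumours and 1414 and 1734 in the IL1α-/- tumours. With barcodes under 1000 UMIs left out and the rest thinned to 1000, the shares were 3.99% and 2.08% in WT and 3.46% and 1.81% in IL1α-/-. Before thinning these barcodes gave 4.90% and 2.60% in WT and 4.11% and 2.69% in IL1α-/-. Without WT replicate 1 the difference was 0.281 points, which turns its direction.

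**Figure D2:**
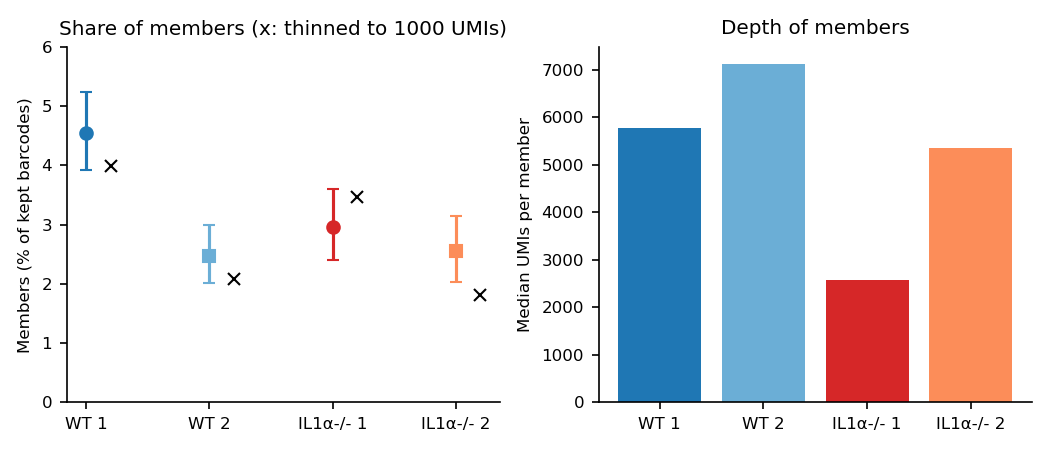
Left, members as a percent of kept barcodes in each tumour, with 95% exact binomial intervals. Crosses give the percent with barcodes under 1000 UMIs left out and the rest thinned to 1000. Right, bars of the median UMIs per member. WT replicate 1 stands above the other 3 tumours at 4.55%, and the members of IL1α-/- replicate 1 are the shallowest at 2577 UMIs.

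Within the members, 101 of 6165 genes tested differed between the hosts (1.64%), 82 higher in IL1α-/- hosts (1.33%) and 19 lower (0.308%). UMIs were summed over the members of each tumour and compared by the quasi-likelihood test of edgeR, with a call at a Benjamini-Hochberg adjusted p under 0.05. The groups did not overlap for any of the 101, as for 45.4% of all genes tested. The median log2 fold change of all genes tested was -0.0029. The called genes included 4 unnamed gene models, the ribosomal gene Rps15 and the mitochondrial gene mt-Atp8. From here CPM are scaled to the UMIs of the tested genes by edgeR's TMM factors, and a log2 change is IL1α-/- over WT with its standard error (SE).

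Which genes were called depended most on IL1α-/- replicate 2, and their number most on WT replicate 1. Leaving out IL1α-/- replicate 2 gave 76 calls, of which 33 were among the 101. Without IL1α-/- replicate 1, WT replicate 1 or WT replicate 2 there were 172, 208 and 143 calls, of which 85, 84 and 78 were among them. In each of these fits 1 group has a single tumour, which is assumed to vary like the other group. DESeq2 called 63 genes, of which 42 were shared. With doublets scored by Scrublet removed, 73 genes were called, of which 71 were among the 101. With sums thinned to the smallest library 102 genes were called, but only 63 of them were among the 101.

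Cd59a fell furthest among the named genes apart from Hspa1b. It encodes a membrane inhibitor of the complement attack complex and lies on chromosome 2 from 104095801 to 104115354 in mm10 (plus strand). Its level was 316 and 401 CPM in the WT tumours and 23.4 and 16.0 CPM in the IL1α-/- tumours. The log2 change was -4.23 ± 0.32 (SE), with an edgeR adjusted p of 5.52e-05. The fall was spread over cells: 68.1% and 68.7% of members held a UMI in WT against 6.32% and 7.06% in IL1α-/-. After thinning to 1000 UMIs the shares were 25.3% and 30.5% against 1.05% and 1.20%, beside 0 to 0.311% of Cd3-gated barcodes thinned in the same way.

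Jun, Hes6 and Hhex, which encode transcription factors, were among the other lower genes. Jun, a subunit of the AP-1 transcription factor, stood at 568 and 314 CPM in WT and at 117 and 101 CPM in IL1α-/- (log2 change -2.04 ± 0.30, edgeR adjusted p = 0.00662). In IL1α-/- replicate 2, 1 member held 45.5% of its UMIs. Hes6, a helix-loop-helix factor, stood at 98.9 and 97.2 against 35.1 and 25.2 CPM (-1.75 ± 0.31, adjusted p = 0.021). The WT and IL1α-/- tumours were far apart for both, with close agreement of the WT pair for Hes6. Hhex, a homeobox factor of blood progenitors, stood at 92.8 and 117 against 42.9 and 29.8 CPM (-1.57 ± 0.31, adjusted p = 0.0317).

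Further lower genes had functions outside transcription. Rnd3, an atypical small GTPase that lowers actin contractility, stood at 200 and 178 CPM in WT against 81.8 and 64.1 CPM in IL1α-/- (log2 change -1.40 ± 0.25, edgeR adjusted p = 0.0224). Ramp1, a subunit of the receptor for the neuropeptide CGRP, stood at 325 and 247 against 117 and 140 CPM (-1.14 ± 0.23, adjusted p = 0.0353). Fam69a stood at 145 and 133 against 46.7 and 52.7 CPM (-1.47 ± 0.27, adjusted p = 0.0224). In all 3 the lower WT tumour exceeded the higher IL1α-/- tumour. Ncapg2, a condensin subunit, gave 33 and 19 UMIs in WT and 1 and 1 in IL1α-/- (-3.35 ± 0.68, adjusted p = 0.0341). Hes6, Hhex, Rnd3, Ramp1, Fam69a and Ncapg2 were no longer called without IL1α-/- replicate 2 (edgeR adjusted p 0.111, 0.17, 0.111, 0.0735, 0.0619 and 0.163). With DESeq2 Hes6 (0.0946), Hhex (0.14) and Fam69a (0.0785) were not called. Ramp1 was also lost with thinned sums (0.065), without WT replicate 1 (0.061) or IL1α-/- replicate 1 (0.0518), and Ncapg2 without WT replicate 1 (0.369) or WT replicate 2 (0.172).

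Cdkn1a, Atf4 and Bcl2l11 were among the 10 higher genes with the smallest p. Cdkn1a, the cell cycle inhibitor p21, rose from 19.4 and 32.9 CPM in WT to 136 and 460 CPM in IL1α-/- (log2 change 3.61 ± 0.48, edgeR adjusted p = 0.00515). Atf4, the transcription factor of the integrated stress response, rose from 112 and 102 to 327 and 330 CPM (1.61 ± 0.21, adjusted p = 0.00482). Bcl2l11, the pro-apoptotic protein Bim, rose from 86.7 and 88.2 to 230 and 456 CPM (2.00 ± 0.29, adjusted p = 0.00662). The IL1α-/- pair agreed closely for Atf4 and differed by more for Cdkn1a and Bcl2l11, where replicate 2 was the higher. Of the 11 tested genes of the BCL2 family and apoptosis list, Bcl2l11 and Cdkn1a rose and none fell, beside 1.64% called of all genes tested. The list's median log2 change was 0.08. The p53 gene Trp53 stood at 71.4 and 71.8 CPM against 46.7 and 68.7, and Mdm2 at 44.9 and 43.4 against 54.5 and 41.2, neither called.

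Several regulators of signalling rose. Fam43a stood at 17.3 and 20.9 CPM in WT and 168 and 140 CPM in IL1α-/- (log2 change 2.99 ± 0.29, edgeR adjusted p = 0.000501). Gpr132, a G protein-coupled receptor of myeloid and lymphoid cells, stood at 7.14 and 1.49 against 81.8 and 133 CPM (4.47 ± 0.48, adjusted p = 0.00115). Tgif1, a homeobox co-repressor of TGF-β signalling, stood at 10.2 and 7.47 against 77.9 and 61.8 CPM (2.89 ± 0.41, adjusted p = 0.00662). These 3 were scarce in the WT tumours, with at most 17 UMIs in a library. Dusp5, a nuclear phosphatase of ERK, stood at 234 and 164 against 534 and 634 CPM (1.55 ± 0.22, adjusted p = 0.00662). Susd6 stood at 87.7 and 77.7 against 230 and 252 CPM (1.54 ± 0.22, adjusted p = 0.00662). Eif3j1, a translation initiation factor subunit, stood at 24.5 and 22.4 against 168 and 110 CPM (2.50 ± 0.31, adjusted p = 0.00369). A near-identical copy, Eif3j2, can share its reads, and the part of this in the value was not tested.

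Free RNA was read from barcodes of at most 100 UMIs. Wherever it is set beside the members, both are in CPM of all their UMIs, without TMM factors. Free RNA held some of these transcripts at a higher level than the members did. That was so in all 4 libraries for 8 of the 33 called named genes (Gpr132, Ccl5, Tgif1, Tnfaip3, Bnip3, Hilpda, Mif and Fosl2). For all 8 the free RNA was higher in both IL1α-/- libraries than in both WT libraries. The same held for every other named gene called higher, and for Jun and Ncapg2, which were called lower. Cdkn1a stood in free RNA at 114 and 100 CPM in WT and 182 and 368 CPM in IL1α-/-. That was above the members except in IL1α-/- replicate 2. Atf4, at 131 and 134 against 204 and 336 CPM, was above them except in IL1α-/- replicate 1. Fosb, at 145 and 146 against 356 and 492 CPM, was above them except in WT replicate 1. Gpr132 stood in free RNA at 75.1 and 49.9 CPM in WT and 161 and 308 CPM in IL1α-/-, and Tgif1 at 59.1 and 40.9 against 116 and 131 CPM. Fam43a stood lower there than in the members, at 10.9 and 3.84 against 13.5 and 20.4 CPM, and Cd59a at 19.2 and 23.02 against 6.72 and 3.27 CPM. The part of free RNA in the members' changes was not tested.

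**Figure D3:**
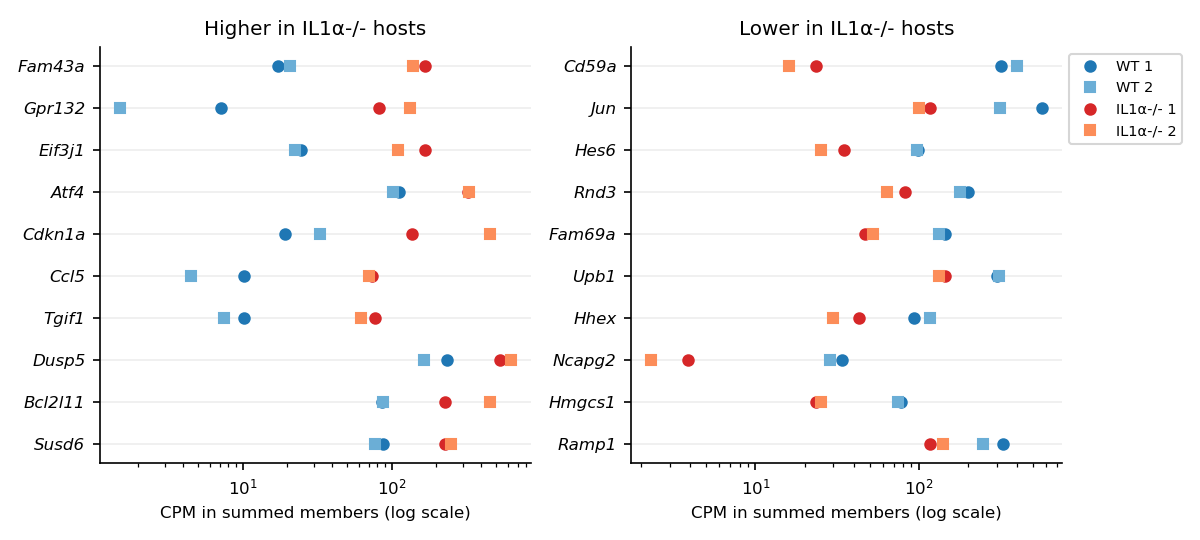
CPM on a log axis for the 10 higher and the 10 lower genes with the smallest p, with 1 point per tumour. The 2 groups are separate for each gene, from Fam43a at 17.3 and 20.9 against 168 and 140 CPM to Cd59a at 316 and 401 against 23.4 and 16.0 CPM.

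Some higher genes came mostly from 1 member. For 10 of the 82 higher genes, 1 member held at least 50% of the UMIs in both IL1α-/- libraries, and for an 11th, S100a6, in replicate 2 alone. Ccl5, a T cell chemokine, stood at 10.2 and 4.48 CPM in WT and 74.0 and 71.0 CPM in IL1α-/- (log2 change 3.18 ± 0.43, edgeR adjusted p = 0.00566). Of its IL1α-/- UMIs, 52.6% and 90.3% lay in 1 member of each library, and in the Cd3 gate Ccl5 stood at 1063 and 1011 CPM in WT and 13460 and 5981 CPM in IL1α-/-. Col1a1 had 95.8% and 97.6% of its IL1α-/- UMIs in 1 member, and Postn 88.9% and all of them. These are collagen and matrix genes of fibroblasts.

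Leaving out members with 3 or more UMIs of other cell classes gave 110 calls, of which 87 were among the 101. Ccl5, Mt1, Postn, Fbln2, Col1a1, Col6a1, Col6a2, Ifitm3 and Mgst1 then fell below the filter on low counts, and S100a6, S100a4, Tmsb10, S100a11 and Ifrd1 were tested and no longer called. S100a6 moved from a log2 change of 1.40 to 0.31 and S100a4 from 2.30 to 1.07. Tmsb10 moved from 1.05 to 0.91 (adjusted p = 0.0548), S100a11 from 0.89 to 0.72 (0.115) and Ifrd1 from 1.36 to 1.12 (0.10), so these 3 kept most of their fold. Cd59a, Fam43a, Gpr132, Cdkn1a and Atf4 were called in that fit too. The genes of this and the preceding paragraph, other than Ccl5 and these 5, were singled out after their values were seen.

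**Figure D4:**
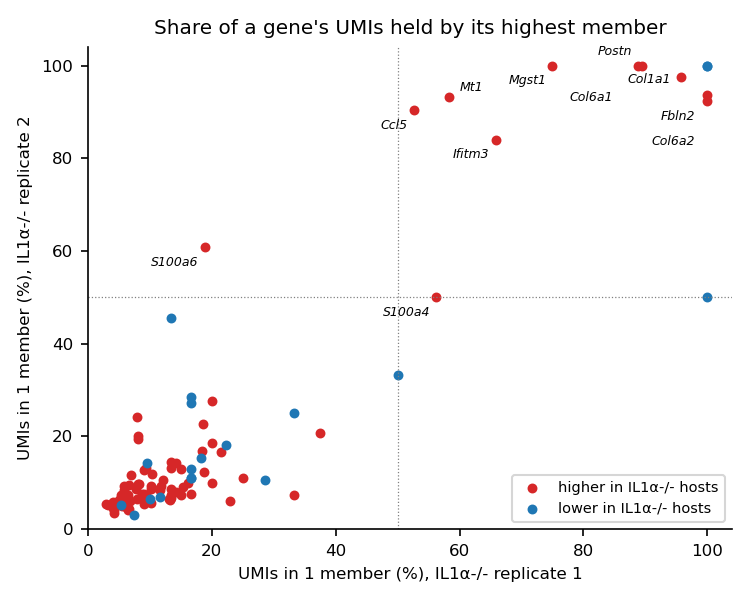
For each of the 101 called genes, the percent of its UMIs held by its highest member in IL1α-/- replicate 1 (horizontal) and replicate 2 (vertical), red for higher and blue for lower genes, with dotted lines at 50%. Collagen and matrix genes and Ccl5 lie at the upper right, among them Col1a1 at 95.8% and 97.6%, while most called genes lie near the lower left.

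Among the genes that define the lineage Upb1 and Cd209d passed the test. Of the 30 genes of the identity list, all of which were tested, none rose and these 2 fell, beside 1.64% of all genes tested, with a list median of -0.17. The groups did not overlap for 16 lower and 2 higher members, where 45.4% of all tested genes did not overlap. Tcf4, the master regulator, stood at 2046 and 1800 CPM in WT and 1726 and 2066 in IL1α-/- (log2 change -0.02 ± 0.20, edgeR adjusted p = 0.978). Runx2, which controls exit from the bone marrow, stood at 661 and 574 against 600 and 653 CPM (0.02 ± 0.19, adjusted p = 0.975). Spib stood at 321 and 287 against 280 and 389 CPM (0.15 ± 0.21, adjusted p = 0.805). The groups overlapped for these 3 factors. Bst2 stood at 2385 and 2633 against 2637 and 3147 CPM (0.21 ± 0.21, adjusted p = 0.726).

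Irf8, the factor of dendritic and monocyte fate, had the lower values in IL1α-/- hosts without passing the test. It stood at 2805 and 3069 CPM in WT and 1924 and 1424 CPM in IL1α-/- (log2 change -0.81 ± 0.22, edgeR adjusted p = 0.0963), while DESeq2 gave an adjusted p of 0.00447. With edgeR it also passed without the filter on low counts (adjusted p = 0.00758) and with thinned sums (0.0271). Its log2 change was -0.89 without WT replicate 1 and -1.05 without IL1α-/- replicate 1. Under 12 of 17 alternatives Irf8 did not pass, and its log2 change ranged from -1.05 to -0.62 over the 17. Upb1, an enzyme of pyrimidine breakdown, fell from 301 and 311 to 144 and 133 CPM (-1.15 ± 0.21, edgeR adjusted p = 0.0231). Cd209d, a C-type lectin, fell from 528 and 490 to 168 and 295 CPM (-1.10 ± 0.24, adjusted p = 0.0459). Its adjusted p was 0.148 without IL1α-/- replicate 1 and 0.0665 with Scrublet doublets removed, and that of Upb1 without IL1α-/- replicate 2 was 0.11. Ly6c2, a surface protein of peripheral plasmacytoid dendritic cells, stood at 994 and 1126 against 1913 and 1477 CPM (0.67 ± 0.21, adjusted p = 0.142).

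The gate genes themselves are given without a test. Siglech stood at 2597 and 2205 CPM in WT and 2388 and 1775 CPM in IL1α-/-, and Ccr9, the gut-homing chemokine receptor, at 1206 and 1154 against 1983 and 1406 CPM. Klk1 stood at 1297 and 1665 against 931 and 1388 CPM, and Cox6a2 at 1616 and 1689 against 2026 and 1514 CPM. For Ccr9 alone both IL1α-/- tumours stood above the WT range, and for none of the 4 did both stand below it.

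Transcripts of 19 of 20 listed type I and type III interferon genes were not detected. Over these 19, all listed Ifna genes, Ifnb1 and the type III genes Ifnl2 and Ifnl3 among them, the members held 0 UMIs in each library, which allows up to 2.96 and 4.45 CPM in the WT tumours and 11.1 and 6.56 CPM in the IL1α-/- tumours (3 counts per library). The 20th gene, Ifnk, a type I interferon of keratinocytes, gave 7 and 3 UMIs in WT and 3 and 4 in IL1α-/-. The receptor for single-stranded RNA, Tlr7, stood at 127 and 133 CPM against 175 and 156 (log2 change 0.34 ± 0.22, edgeR adjusted p = 0.55). Tlr9, the receptor for CpG DNA, gave 3 and 9 UMIs in WT and 1 and 4 in IL1α-/-, below the filter. Irf7 stood at 68.3 and 111 against 62.3 and 68.7 CPM (-0.41 ± 0.31, adjusted p = 0.614). None of the 16 tested genes of nucleic acid sensing was called by edgeR or DESeq2, and 2 had an unadjusted p under 0.05, with a median log2 change of 0.15.

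Of the 20 tested interferon response genes 1 rose and none fell, beside 1.64% called of all genes tested, with a median log2 change of 0.45. That gene was Ifi27l2a, which stood at 388 and 250 CPM in WT and 538 and 937 CPM in IL1α-/- (log2 change 1.22 ± 0.27, edgeR adjusted p = 0.048). Without IL1α-/- replicate 2 its log2 change was 0.74 (adjusted p = 0.268), and without WT replicate 2 it was 0.92 (adjusted p = 0.0565). The groups did not overlap for 10 higher members of the list and 0 lower ones, a share near the 45.4% of all tested genes. Isg15 stood at 15.3 and 4.48 against 85.7 and 22.9 CPM (adjusted p = 0.139), with IL1α-/- replicate 1 the highest of the 4 tumours.

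No gene of antigen presentation among the 21 tested was called by edgeR or DESeq2, and 2 had an unadjusted p under 0.05, with a median log2 change of 0.14. The class II genes were abundant. Cd74, the invariant chain, stood at 5012 and 5436 CPM in WT and 4484 and 5302 CPM in IL1α-/- (log2 change -0.09 ± 0.23, edgeR adjusted p = 0.903). H2-Ab1 stood at 1541 and 1475 against 1585 and 1795 CPM (0.17 ± 0.19, adjusted p = 0.762).

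Among 5 tested genes of costimulation and checkpoint, Cd200r1 fell and none rose, beside 1.64% called of all genes tested. The list's median log2 change was 0.11. Cd200r1, an inhibitory receptor of myeloid cells, stood at 84.7 and 135 CPM in WT against 27.3 and 43.5 CPM in IL1α-/- (log2 change -1.54 ± 0.35, edgeR adjusted p = 0.0482), and it was no longer called under 7 of 17 alternatives, among them leaving out IL1α-/- replicate 1 (0.0592), WT replicate 2 (0.126) or IL1α-/- replicate 2 (0.0674). Lag3 stood at 125 and 97.2 against 117 and 174 CPM (0.41 ± 0.26, adjusted p = 0.527). Of the 13 tested inhibitory receptors of plasmacytoid dendritic cells edgeR and DESeq2 called none, and 2 had an unadjusted p under 0.05 (median log2 change -0.10). Gzmb, described as a product of activated plasmacytoid dendritic cells, gave 0 and 1 UMIs in WT and 1 and 1 in IL1α-/-. Ido1, the tryptophan-degrading enzyme, gave 0 and 0 against 0 and 3 UMIs.

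The migration list had 13 tested genes with a median log2 change of 0.02. Itga4, the α4 integrin, rose and none fell, beside 1.64% called of all genes tested. It stood at 105 and 85.2 CPM in WT and 226 and 195 CPM in IL1α-/- (log2 change 1.12 ± 0.23, edgeR adjusted p = 0.0361). Its adjusted p was 0.0951 without WT replicate 2, 0.0551 without IL1α-/- replicate 2 and 0.0937 with DESeq2. Cxcr3 stood at 96.9 and 67.3 against 77.9 and 61.8 CPM (-0.28 ± 0.29, adjusted p = 0.731). Ccr7, the lymph node homing receptor, gave 5 and 3 UMIs in WT and 1 and 3 in IL1α-/-. Of 6 tested cytokines and chemokines only Ccl5 passed, beside 1.64% of all genes tested, with the concentration in single members given above. The list's median of 0.71 was -0.49 without members holding 3 or more UMIs of other classes. Leaving out WT replicate 1 gave 3.05, leaving out WT replicate 2 gave 1.92, and leaving out IL1α-/- replicate 2 gave 1.84.

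The interleukin 1 axis was nearly silent in the members. Of 16 listed genes in the files 3 passed the filter on low counts, edgeR and DESeq2 called none of them, and 1 had an unadjusted p under 0.05 (median log2 change -0.15, or 0.90 with DESeq2). The receptor Il1r1 gave 1 and 2 UMIs in WT and 0 and 3 in IL1α-/-. Of the 16 tested NF-kB response genes Tnfaip3 rose and none fell, beside 1.64% called of all genes tested. The list's median log2 change was 0.21. Tnfaip3, the inhibitor A20, stood at 56.1 and 46.3 CPM in WT and 148 and 149 CPM in IL1α-/- (log2 change 1.52 ± 0.25, edgeR adjusted p = 0.0122). In free RNA Tnfaip3 was higher than in the members of each library, at 232 and 148 CPM in WT and 433 and 695 CPM in IL1α-/-. Nfkbia stood at 61.2 and 64.3 against 81.8 and 75.6 CPM (adjusted p = 0.651).

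Sterol synthesis genes had a median log2 change of -1.12, the lowest of the lists with over 10 tested genes; with thinned sums it was -0.64. Of 16 tested members Hmgcs1 and Msmo1 fell and none rose, beside 1.64% called of all genes tested. The groups did not overlap for 11 lower and 0 higher members, beside 45.4% of all tested genes in either direction. Hmgcs1, which makes HMG-CoA for the mevalonate pathway, stood at 77.5 and 74.7 CPM in WT against 23.4 and 25.2 CPM in IL1α-/- (log2 change -1.63 ± 0.33, edgeR adjusted p = 0.0341). Msmo1, a sterol methyl oxidase, stood at 82.6 and 62.8 against 23.4 and 20.6 CPM (-1.75 ± 0.36, adjusted p = 0.0361). Among the others Fdps stood at 61.2 and 111 against 19.5 and 32.1 CPM (adjusted p = 0.0791), and Sqle at 30.6 and 34.4 against 3.90 and 9.16 CPM (adjusted p = 0.0874). Insig1 overlapped between the groups. Without IL1α-/- replicate 2 neither Hmgcs1 nor Msmo1 was called, and DESeq2 gave neither an adjusted p (edgeR adjusted p 0.11 and 0.139), and Msmo1 was lost without WT replicate 1 (0.0586). With sums thinned to the smallest library the log2 change of Hmgcs1 was -0.72 (adjusted p = 0.557) and that of Msmo1 -1.50 (adjusted p = 0.065).

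The upstream sequence of Hmgcs1 is shown because it was the 1 sterol gene with a match to the sterol regulatory element core, the letters bound by the SREBP factors that drive this pathway. The motif TCACCCCAC was searched on both strands in the 250 bases before the RefSeq start. The RefSeq table, build GRCm38.p6, held 10 of the 16 tested sterol genes, 1 of which (10.0%) had the motif, against 0.567% of the 4935 tested genes with an entry and 0.466% of all 27025 promoters. The stretch is chr13:119690168-119690267 on the plus strand, upstream of the gene, with the motif in capitals, ending 129 bases before the start.
Hmgcs1: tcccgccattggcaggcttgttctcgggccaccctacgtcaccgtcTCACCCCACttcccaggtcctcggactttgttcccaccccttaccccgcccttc

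Genes of glycolysis and hypoxia had a median log2 change of 0.77, the highest of the lists with over 10 tested genes. The median was 0.34 without WT replicate 1 and 0.43 without IL1α-/- replicate 2. Bnip3, Hilpda and Mif rose among 16 tested members and none fell, beside 1.64% called of all genes tested. The groups did not overlap for 7 higher members, a share near the 45.4% of all tested genes. Bnip3, a mitochondrial protein of hypoxic cells, stood at 11.2 and 13.5 CPM in WT against 39.0 and 66.4 CPM in IL1α-/- (log2 change 2.16 ± 0.42, edgeR adjusted p = 0.0308). Hilpda, a lipid droplet protein, stood at 5.10 and 11.96 against 31.2 and 55.0 CPM (2.47 ± 0.52, adjusted p = 0.0374). Mif, a cytokine induced by hypoxia, stood at 209 and 404 against 651 and 769 CPM (1.23 ± 0.27, adjusted p = 0.0447). WT replicate 1 was the lower WT tumour for all 3. Without it the log2 change of Mif was 0.81 (adjusted p = 0.0975) and that of Hilpda 1.87 (adjusted p = 0.0783). Without IL1α-/- replicate 2 the adjusted p of Bnip3, Hilpda and Mif was 0.334, 0.427 and 0.111, and that of Bnip3 with Scrublet doublets removed was 0.0555. All 3 genes were higher in free RNA than in the members of each library, in CPM of all UMIs without TMM factors. On that scale the members of IL1α-/- replicate 1 held Mif at 618 CPM, close to its free RNA. Free RNA held Bnip3 at 20.7 and 46.9 CPM in WT and 47.1 and 122 in IL1α-/-, Hilpda at 42.0 and 43.5 against 72.6 and 237, and Mif at 490 and 545 against 623 and 797. The part of free RNA in these changes was not tested. Glycolytic enzymes overlapped more: Gapdh stood at 523 and 933 against 682 and 1031 CPM, and Ldha at 255 and 356 against 323 and 364 CPM.

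Immediate early and heat shock genes split. Of 25 tested Fosb, Fosl2 and Nr4a3 rose and Jun and Hspa1b fell, beside 1.64% called of all genes tested. The list's median log2 change was 0.50. Fosb, an AP-1 partner of Jun, stood at 164 and 108 CPM in WT against 335 and 302 CPM in IL1α-/- (log2 change 1.21 ± 0.24, edgeR adjusted p = 0.0308). Fosl2, another AP-1 subunit, stood at 31.6 and 26.9 against 62.3 and 112 CPM (1.62 ± 0.34, adjusted p = 0.0367). Nr4a3, an orphan nuclear receptor, stood at 147 and 154 against 273 and 369 CPM (1.11 ± 0.22, adjusted p = 0.0308). The 3 stood apart from Jun, whose level was the lower in IL1α-/- hosts. Hspa1b, an inducible Hsp70, gave 269 and 27 UMIs in WT and 2 and 1 in IL1α-/- (-5.16 ± 1.09, adjusted p = 0.0374). Without WT replicate 1 its log2 change was -3.13 (adjusted p = 0.0552), and with DESeq2 its adjusted p was 0.0557. Fosl2 had a log2 change of 1.06 without IL1α-/- replicate 2 (adjusted p = 0.31), and Nr4a3 and Hspa1b were not called there either (adjusted p 0.17 and 0.111). Fosb was not called without WT replicate 2 (adjusted p = 0.0858) or with Scrublet doublets removed (0.094), nor Nr4a3 with thinned sums (0.0661). Free RNA held Fosl2 at 163 and 148 CPM in WT and 417 and 638 CPM in IL1α-/-, above the members in each library.

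In the secretory pathway and unfolded protein response list Atf4 rose among 24 tested genes and none fell (median 0.04). This stands beside 1.64% called of all genes tested. Xbp1, the secretory regulator that plasmacytoid dendritic cells hold at high level, stood at 526 and 457 CPM in WT and 900 and 705 CPM in IL1α-/- (log2 change 0.70 ± 0.20, edgeR adjusted p = 0.124). Ddit3, a target of Atf4, stood at 14.3 and 23.9 against 54.5 and 38.9 CPM (adjusted p = 0.175). Of 4 tested cell cycle genes edgeR and DESeq2 called none, and 1 had an unadjusted p under 0.05. Their median log2 change was 0.51, or -0.18 without WT replicate 1.

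**Figure D5:**
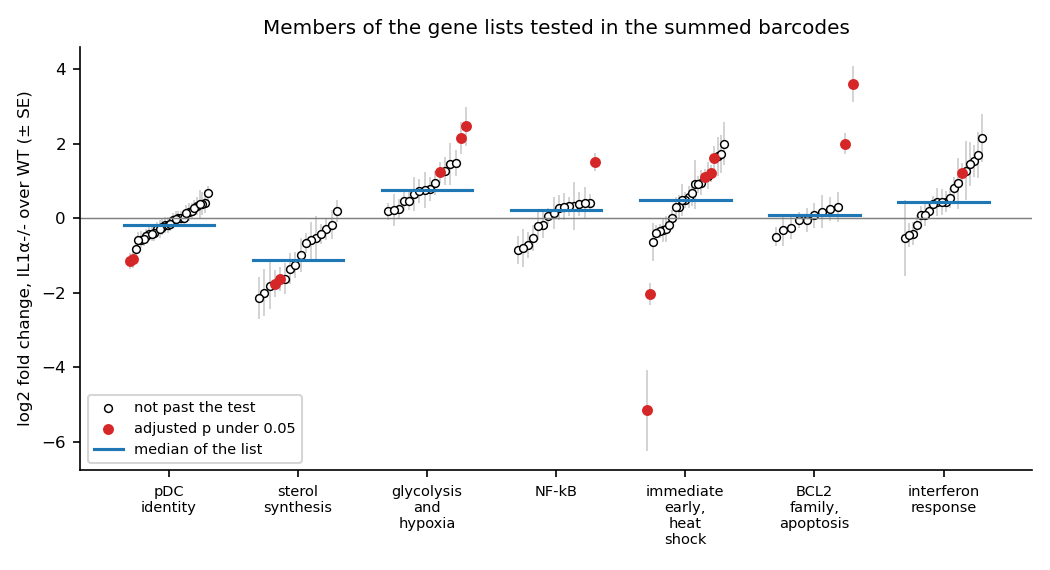
Log2 fold change (IL1α-/- over WT, bars SE) of each tested gene of 7 lists, filled red where the adjusted p is under 0.05, with a blue line at the median of each list. The sterol synthesis list has its median at -1.12 and the glycolysis and hypoxia list at 0.77, while the identity list lies around -0.17.

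Whether the members changed differently from the other cells was tested with an interaction of cell group and host genotype, each tumour as a block. Against all other kept barcodes 339 of 12074 genes passed (2.81%), and 40 of the 101 called genes were among them. These other barcodes mix tumour cells, T cells and phagocytes in proportions that differ between tumours, so the Cd3 gate was added as a comparison after the data had been seen. There 85 of 10114 genes passed (0.84%), 18 of them among the 101. Among the named genes called in the members, Gpr132, Cdkn1a, Tgif1, Hes6, Rnd3 and Ncapg2 passed both. Cdkn1a had a log2 change of 3.61 in the members and 1.05 in the Cd3 gate (interaction 2.44, edgeR adjusted p = 0.0027). Rnd3 had a log2 change of -1.40 in the members and 0.64 in the Cd3 gate (interaction -1.99, adjusted p = 0.0313), where it stood at 3.58 to 8.56 CPM.

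For several further genes the difference from the Cd3 gate did not pass. Eif3j1 had a log2 change of 2.50 in the members and 2.97 in the Cd3 gate (interaction -0.54, edgeR adjusted p = 0.727). Dusp5 had 1.55 and 1.34 (interaction 0.17, adjusted p = 0.901), Tnfaip3 1.52 and 1.22 (interaction 0.27, adjusted p = 0.853) and Fosb 1.21 and 1.29 (interaction -0.08, adjusted p = 0.974). For Cd59a the log2 change was -2.98 in the Cd3 gate, at 0.43 to 5.38 CPM (interaction -1.41, adjusted p = 0.733). The sterol genes Hmgcs1 and Msmo1, at -1.63 and -1.75 in the members, each had -0.47 in the Cd3 gate (interactions -1.20 and -1.31, adjusted p = 0.285 and 0.384) and -0.83 and -1.21 in all other barcodes (interactions -0.82 and -0.58, adjusted p = 0.481 and 0.784). Ramp1 did differ, with a log2 change of -2.65 in the Cd3 gate and -1.14 in the members (interaction 1.48, adjusted p = 0.0113).

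Chromosome 2, which carries Il1a at 129299610 to 129309972 in mm10, held 14 of the 101 called genes (13.9%), against 7.46% of the genes tested. Bcl2l11 starts 1.17 Mb from the start of Il1a, and Eif3j1 7.27 Mb. Cd59a starts 25.2 Mb away, Itga4 50.04 Mb and Rnd3 78.2 Mb. The remaining ones, named because they lie on this chromosome, are Gpcpd1 (3.23 Mb), Slc30a4 (6.62 Mb), Zfp106 (8.79 Mb), Dll4 (9.97 Mb), Knl1 (10.3 Mb), Ppp1r16b (29.4 Mb), Cebpb (38.4 Mb), Fam217b (49.1 Mb) and Cytip (71.2 Mb). Any part of the position in these changes was not tested.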

How the data were processed

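The deposited files hold raw UMI counts per gene and barcode, made by the authors with Cell Ranger 3.1.0 and mm10 per the submitters' processing notes, with empty droplets included. Each matrix lists 64591 features, of which 31053 are mouse; only these were used. Counts were summed per tumour over the members and tested with edgeR 4.0.16 (R 4.3.3; filterByExpr, TMM, quasi-likelihood, Benjamini-Hochberg, 0.05), with DESeq2 1.42.0 as an alternative. Shares were compared with scipy 1.17.1. Doublets were left in; Scrublet (scanpy 1.11.5) at 0.8% per 1000 barcodes was an alternative. The test was checked on simulated counts. Members held 1014336, 674378, 270153 and 457551 UMIs in WT 1, WT 2, IL1α-/- 1 and IL1α-/- 2. Named genes were the 10 higher and 10 lower with the smallest p (no unnamed, ribosomal or mitochondrial genes), list members called, and a fixed set. Members and lists were chosen with earlier results of these data known. Gene positions are from GENCODE vM21.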

Additional observations from a re-analysis of the deposited data

Results flagged for a closer look

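For 22 named genes the difference between hosts was not the same in the members as in the other kept barcodes, by edgeR's interaction test (log2, members minus others; adjusted p under 0.05). Among genes called higher in the members the interaction was 1.99 for Fam43a, 2.80 for Gpr132, 0.92 for Atf4, 2.63 for Cdkn1a, 1.71 for Tgif1, 0.95 for Susd6 and 1.08 for Mif. Among those called lower it was -1.54 for Cd59a, -2.05 for Jun, -1.58 for Hes6, -2.28 for Rnd3, -1.32 for Fam69a, -1.63 for Hhex, -3.85 for Ncapg2, -1.42 for Cd200r1 and -2.41 for Hspa1b. Genes not called in the members also differed: Irf8 at -1.21, Runx2 at -1.49, Irf7 at -1.40, Lag3 at -1.91, Ly6c2 at -1.05 and Cxcr3 at -1.07. For Runx2 the log2 change was 0.02 in the members and 1.51 in the other barcodes, and for Lag3 it was 0.41 and 2.44. Against the Cd3 gate the interaction passed too for Gpr132, Cdkn1a, Tgif1, Hes6, Rnd3, Ncapg2 and Runx2. It did not pass there for Fam43a (edgeR adjusted p = 0.617), Atf4 (0.0886), Jun (0.0911), Cd59a (0.733), Irf8 (0.137) or Lag3 (0.255), among others. The log2 change in the Cd3 gate was 1.70 for Fam43a and -1.07 for Jun.

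UMIs assigned to human genes of the combined reference lay outside the comparisons. The members held 128 of them in WT replicate 1, 60 in WT replicate 2, 39 in IL1α-/- replicate 1 and 40 in IL1α-/- replicate 2, against a limit of 3 counts.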

How the results depend on the processing

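Of 547 values of the 33 called named genes under the alternatives, 498 kept direction and call, 49 were no longer called and 0 changed sign. Alternatives in which a gene fell below the filter or got no adjusted p are not among the 547, so such losses are not counted. Ccl5, for example, had a value under 14 of 17 alternatives. The count of 101 called genes was 63 with DESeq2, 296 without the filter on low counts and 76 to 208 with 1 tumour left out. The replicate numbers are not tied to the collection days. Over the tested genes, the deviations of same-numbered samples from their group means (log2 of CPM plus 1) correlated at 0.0966. With the replicate block 237 genes were called, all 101 among them. The interaction count of 339 was 39 against a conventional dendritic gate, 85 against the Cd3 gate and 152 to 316 with 1 tumour left out. The share difference of -0.757 points was 0.584 over barcodes without a Cd3 UMI and -1.80 to 0.281 with 1 tumour left out. Uncalled values changed sign near zero. Tcf4 was 0.014 without members over 2 times the median UMIs and 0.020 without those with UMIs of other classes. With sums thinned Tcf4 was 0.055, Spib -0.016 and Irf7 0.029. Runx2 was -0.014 by library size alone and -0.032 without the filter. With 1 tumour left out, values ranged from -0.16 to 0.10 for Tcf4, -0.13 to 0.35 for Spib, -0.10 to 0.12 for Runx2, -0.51 to 0.021 for Cxcr3, -0.23 to 0.018 for Cd74 and -0.13 to 0.29 for Cox6a2. The cause of these changes was not tested. The depth of IL1α-/- replicate 1 limits low genes most.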

Other observations

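Further called genes outside the rule for named genes, picked after their values were seen, are given as values. Ly6a, a surface antigen raised by interferons, stood at 330 and 588 CPM in WT and 1881 and 1003 CPM in IL1α-/- (edgeR adjusted p = 0.0265, log2 change 1.65). Plaur, the urokinase receptor, stood at 144 and 89.7 against 339 and 327 CPM (1.49, adjusted p = 0.0125). After thinning to 1000 UMIs, 14.04% and 7.37% of members held a Plaur UMI in WT against 28.4% and 26.5% in IL1α-/-, beside 0 to 0.263% of Cd3-gated barcodes. Runx3, a transcription factor of lymphoid and dendritic cells, stood at 229 and 199 against 460 and 405 CPM (1.00, adjusted p = 0.0312). Cebpb, a myeloid transcription factor, stood at 55.1 and 23.9 against 121 and 229 CPM (2.13, adjusted p = 0.019). Dll4, a Notch ligand, stood at 12.2 and 14.9 against 23.4 and 186 CPM (3.09, adjusted p = 0.0345), so that IL1α-/- replicate 2 alone was far from the rest.

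Ranked by the lowest ratio over the 4 libraries, members differed among themselves most in Ccl4, a chemokine of activated cells. After thinning to 1000 UMIs its ratio of variance to mean was 9.75, 9.81, 8.31 and 6.64 in WT 1, WT 2, IL1α-/- 1 and IL1α-/- 2, where the median gene of 1027 had 0.899 as the lowest of its 4 ratios. In single libraries Gm42418 (20.01 in WT 1, 6.77 in IL1α-/- 2) or Malat1 (10.2 in IL1α-/- 1) stood above it. Ly6c2, Slpi, Ly6d and Fos were also among the 9 most variable, with lowest ratios of 1.94, 2.35, 2.05 and 1.94.

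In the same windows of 250 bases, the AP-1 letters TGACTCA (either strand) were found in 6 of 66 higher called genes with an entry (9.09%). They were also found in 2 of 17 lower called genes (11.8%), in 2.59% of tested genes and in 4.43% of all promoters. Among the 6, Col6a1 and S100a11 were not called once members with 3 or more UMIs of other cell classes were left out. The NF-kB letters GGGANTTCC were found in 4 of 13 NF-kB list genes (30.8%; Tnfaip3, Rel, Tnip1 and Nfkb2) and in 2.19% of tested genes. TGACGTCA was found in 1 of 66 higher genes (1.52%) and 3.18% of tested genes. TGATGCAA was found in 0 of 66 and 0.446% of tested genes. TCACNCCAC was found in 1 of 10 sterol genes (10.0%) and 0.973% of tested genes.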
